A study of Mus musculus with 6 samples.

Results

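Granzymes and the other genes of cytotoxic granules were followed in mouse invariant natural killer T (iNKT) cells of 3 organs. The 8 genes, Gzma, Gzmb, Gzmm, Prf1, Nkg7, Ctsw, Fasl and Serpinb9, were taken by symbol, and all 8 were found among the 27998 genes that every library lists. iNKT cells are T cells with a nearly invariant T cell receptor that recognises lipids on CD1d. They were sorted from liver, spleen and lymph node of C57BL/6 mice of WT genotype and 5 weeks of age, after depletion of CD8 and B220 positive cells, with an antibody to TCR-b and a CD1d tetramer. Each organ has 2 single-cell libraries, and the comparison asks how the same lineage differs between organs. The labels name the molecule as nuclear RNA and give no number of mice per library. The study's methods call the libraries of an organ biological repeats, and p-values measure the spread between them.

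Cytotoxic lymphocytes store serine proteases, the granzymes, in secretory lysosomes. On contact with a target, the granules fuse with the membrane, perforin (Prf1) opens pores, and granzymes enter the target, where granzyme B (Gzmb) cleaves caspases and granzyme A (Gzma), a tryptase, cuts other substrates. Nkg7 is a granule membrane protein needed for efficient release, Ctsw (cathepsin W) is a cysteine protease of cytotoxic lymphocytes, Fasl triggers death through the receptor Fas, and Serpinb9 is an inhibitor of granzyme B that protects the killer itself. Natural killer (NK) cells and effector CD8 T cells are the best known carriers of this machinery, and the iNKT1 subset of iNKT cells shares parts of it.

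After filtering, the cells numbered 2801 and 2861 for liver, 2729 and 2655 for spleen and 2638 and 2848 for lymph node, with 4758138 to 10870838 unique molecular identifiers (UMIs). The median was 3592 and 2880 UMIs per cell in liver against 1470 to 1730.5 in the other organs, so that shares of cells with a UMI are given for cells thinned to 1000 UMIs. Levels are UMI counts scaled to a common library size (counts per 1e6, CPM) of a library's UMIs outside ribosomal and haemoglobin genes. Pairs of libraries shared at most 0.749% of cell barcodes. Markers of the sorted lineage were present in all libraries (Cd3d, Cd3e and Cd3g, 4324 to 5611 CPM summed), and CD8 genes summed to 2.48 to 7.08 CPM. The 5 NK-cell markers summed to 109 and 154 CPM in liver, 76.6 and 57.7 in spleen against 22.2 and 36.0 in lymph node, with Eomes at 0 in both liver libraries and Ncr1 and Eomes at 0 in lymph node 1. They thus move with the organ effects below, and their part in them was not tested except where cells are left out. Xist had 5401 to 10404 UMIs in the liver and spleen libraries and none in lymph node, while Ddx3y had 676 and 746 UMIs in lymph node alone. Any difference from lymph node therefore also separates Xist-positive from Xist-negative libraries, and the 2 cannot be told apart.

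The members lie on 6 chromosomes (GRCm38, GENCODE vM21). Gzma is at chr13:113093825-113100981 and Ctsw at chr19:5465043-5468507, both on the minus strand. Gzmb (chr14:56258838-56262260) and Fasl (chr1:161780689-161788495) are on the minus strand too. Gzmm (chr10:79689020-79695261), Prf1 (chr10:61297833-61304680), Nkg7 (chr7:43437073-43438249) and Serpinb9 (chr13:33003250-33017957) are on the plus strand. Ctsw overlaps Fibp on the opposite strand by 9 bases. Because Gzmb and Serpinb9 belong to gene families with close copies, their UMIs could in part have been split with relatives. RefSeq promoters (GRCm38.p6, 250 bases before to 50 after the start) were found for 7 of the 8. The promoters of Gzma, Gzmb and Nkg7 are shown because the results turn on these genes, in which the liver and lymph node levels stood farthest apart. They are chr13:113100932-113101231 and chr14:56262285-56262584 (both minus strand) and chr7:43436888-43437187 (plus strand), with capitals marking the motifs named after them.
Gzma: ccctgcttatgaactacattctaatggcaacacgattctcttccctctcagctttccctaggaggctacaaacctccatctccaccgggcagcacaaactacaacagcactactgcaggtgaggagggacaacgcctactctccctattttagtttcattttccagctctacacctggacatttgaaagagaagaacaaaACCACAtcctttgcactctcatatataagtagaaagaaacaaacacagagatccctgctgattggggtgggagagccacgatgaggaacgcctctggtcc
Gzmb: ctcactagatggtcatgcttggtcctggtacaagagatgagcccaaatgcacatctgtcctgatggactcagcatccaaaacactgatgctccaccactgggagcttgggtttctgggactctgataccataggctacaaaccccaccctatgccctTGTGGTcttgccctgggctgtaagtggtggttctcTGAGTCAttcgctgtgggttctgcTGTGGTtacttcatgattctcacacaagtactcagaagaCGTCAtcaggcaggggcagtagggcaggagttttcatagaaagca
Nkg7: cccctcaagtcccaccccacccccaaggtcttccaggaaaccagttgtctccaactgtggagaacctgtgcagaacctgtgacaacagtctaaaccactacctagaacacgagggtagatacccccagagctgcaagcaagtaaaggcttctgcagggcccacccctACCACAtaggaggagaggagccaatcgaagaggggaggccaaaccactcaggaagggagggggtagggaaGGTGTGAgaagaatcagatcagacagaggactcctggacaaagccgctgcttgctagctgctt

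Both strands were searched for the motifs RUNX (TGTGGT), T-box (GGTGTGA), AP-1 (TGANTCA) and the cyclic AMP response element core (CRE, TGACG). They occur in 16.8%, 3.98%, 7.81% and 20.8% of 32851 promoters of this length. RUNX letters were in the promoters of Gzma, Gzmb, Prf1, Nkg7, Serpinb9 and the first start of Gzmm. In Gzma they stand 50 bases before the start, and in Gzmb 93 and 34 bases before it, with an AP-1 motif at 58 bases between them and CRE letters 5 bases after the start. Nkg7 has RUNX letters 83 and a T-box motif 13 bases before the start. A match describes these windows and shows no binding.

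Between liver and the other organs, Gzmb and Gzma differed most among the members tested. Gzmb was at 161 and 213.3 CPM in the liver libraries, 11.5 and 5.88 in spleen compared with 5.41 and 6.92 in lymph node. Both liver libraries stood far above all others, while spleen and lymph node overlapped. Gzma was at 51.8 and 65.0 CPM in liver, 16.4 and 17.6 in spleen against 10.6 and 6.36 in lymph node, so the 3 organs were in the order liver, spleen, lymph node without overlap. Gzmm, a granzyme that cleaves after methionine, had 10 UMIs in either liver library, 8 and 5 in spleen compared with 1 and 2 in lymph node. As CPM the liver libraries had 1.42 and 1.65, those of spleen 2.08 and 1.40 against 0.271 and 0.553 for lymph node, so that liver and spleen overlap. It did not pass the filter on low counts and was not tested. The pore former Prf1 was nearly as sparse, with 37 and 22 UMIs in liver, 29 and 22 in spleen against 4 and 6 in lymph node. At 5.24 and 3.63 CPM in liver, 7.55 and 6.16 in spleen compared with 1.08 and 1.66 in lymph node, its highest levels were in spleen.

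For Nkg7 and Fasl the liver and spleen libraries lay close together, and for Ctsw and Serpinb9 less so. Nkg7 was at 2295 and 2576 CPM in liver, 2000 and 1958 in spleen against 557.6 and 595.4 in lymph node. Ctsw reached 647.7 and 697.1 CPM in liver, 414 and 347.5 in spleen compared with 339.8 and 244.8 in lymph node. Fasl had 96.4 and 93.2 CPM in liver, 74.5 and 76.2 in spleen against 33.6 and 27.9 in lymph node. For Serpinb9 the levels were 71.2 and 76.9 CPM in liver, 41.7 and 34.2 in spleen compared with 23.8 and 21.9 in lymph node. In Nkg7, Ctsw, Fasl and Serpinb9 the libraries thus stood in the order liver, spleen, lymph node. How many of all genes do so was not counted, so this order is no result about the members. Pooled counts do not tell fewer expressing cells from less RNA per cell.

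**Figure D1:**
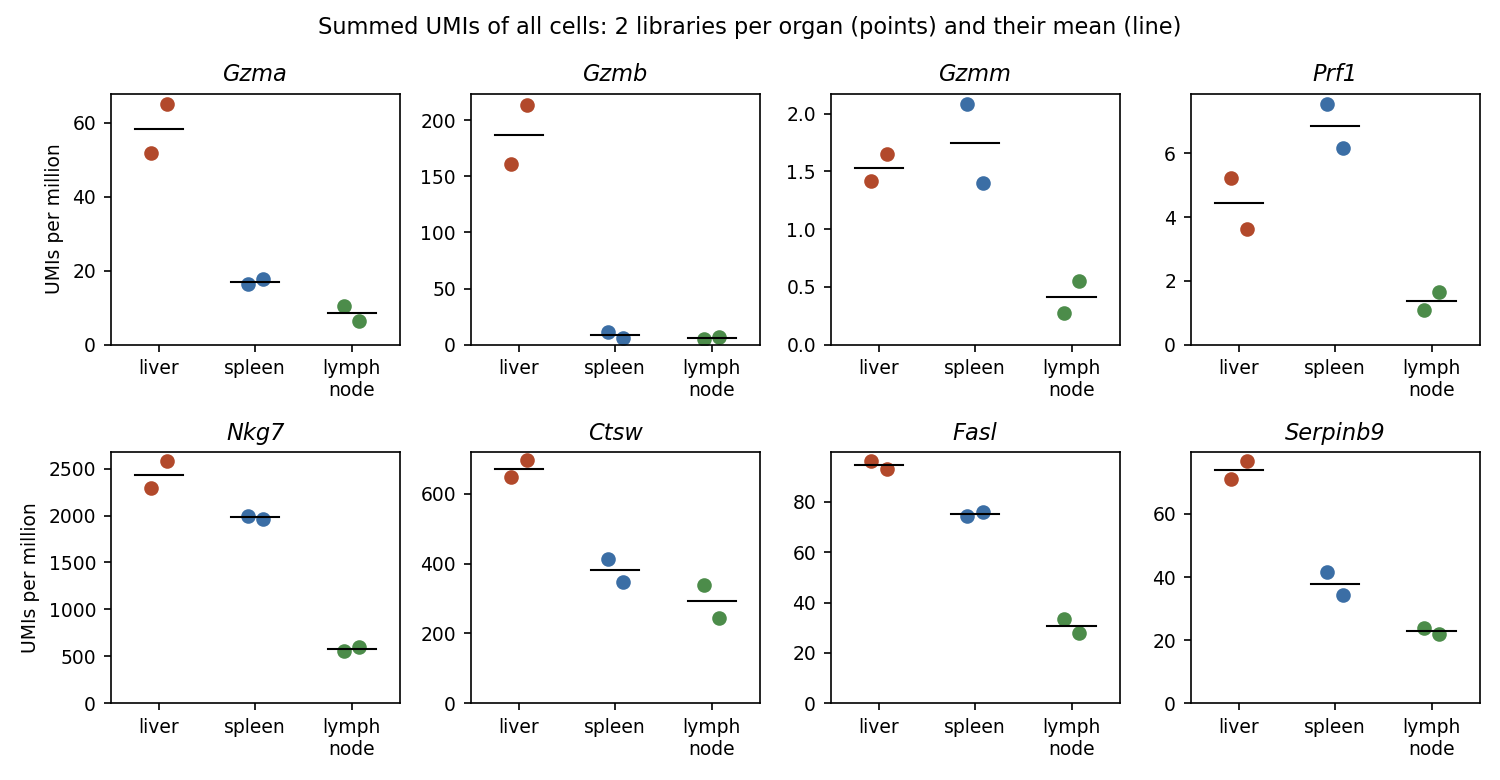
Level of each member in the 6 libraries (CPM, axes from 0 with a scale for each gene), with points for libraries and a line for the mean of an organ's 2 libraries. The liver libraries of Gzmb sit at 161 and 213.3 CPM, and those of spleen and lymph node between 5.41 and 11.5.

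Liver was set against spleen with edgeR's quasi-likelihood test over 10167 genes, in which 25.8% of genes were called at an adjusted p below 0.05, 12.7% as higher in liver. Of the 7 members tested, 4 were called and all of these were higher in liver. Gzmb was 20.3-fold higher (log2 4.34 ± 0.22 SE, adjusted p = 4.31e-11, edgeR). Gzma rose by 1.70 ± 0.19 on the log2 scale (adjusted p = 6.13e-08), Serpinb9 by 0.89 ± 0.15 (3.02e-05) and Ctsw by 0.75 ± 0.13 (0.00019). Fasl (log2 0.26, adjusted p = 0.141), Nkg7 (0.23, 0.178) and Prf1 (-0.69, 0.137) did not pass. The median of the 7 was 0.75, beside 0.02 over all genes tested.

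Liver against lymph node gave a higher level in liver for all 7 members tested, where 37.6% of all genes were called and 18.0% were higher in liver. Gzmb was 29.2-fold higher (log2 4.87 ± 0.23, adjusted p = 1.28e-12, edgeR). Gzma was higher by 2.73 ± 0.21 (3.70e-12), Nkg7 by 2.03 ± 0.13 (1.02e-14), Serpinb9 by 1.64 ± 0.16 (2.59e-10), Fasl by 1.57 ± 0.14 (8.55e-11) and Ctsw by 1.15 ± 0.14 (1.45e-07). Prf1 was higher by 1.63 ± 0.48 (0.00768), a call that was lost with DESeq2 (adjusted p = 0.0622) and without liver 1 (0.0886) or lymph node 1 (0.0955). The median of the members was 1.64 and that of all genes 0.01. The subsets present also moved with this contrast. The 9 iNKT1 markers summed to 3429 and 3700 CPM in liver, 2380 and 2138 in spleen compared with 1154 and 1064 in lymph node. The 10 iNKT17 markers summed to 245 and 297 CPM in liver, 137 and 107 in spleen against 1197 and 1276 in lymph node, and the iNKT17-like cluster held 0.750% and 1.05%, 1.69% and 1.39%, and 32.3% and 35.5% of cells in the same order. Their part in the differences from lymph node was not tested beyond the comparison within 1 cluster per organ given later.

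Spleen and lymph node differed in 18.3% of genes, with 7.98% higher in spleen, and in 6 of the 7 members, each higher in spleen. These were Prf1 (log2 2.33 ± 0.48, adjusted p = 0.000486, edgeR), Nkg7 (1.80 ± 0.13, 4.18e-13), Fasl (1.31 ± 0.15, 2.50e-08), Gzma (1.02 ± 0.26, 0.00416), Serpinb9 (0.75 ± 0.17, 0.00162) and Ctsw (0.40 ± 0.14, 0.0409). Gzmb, at 0.53 ± 0.35 (adjusted p = 0.347), did not pass. The 3 contrasts share libraries and are given side by side for that reason. Without lymph node 2, neither Gzma (0.69, adjusted p = 0.161) nor Ctsw (0.17, 0.586) was called, and Ctsw was not called either without spleen 1 (0.264) or with DESeq2 (0.0850).

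**Figure D2:**
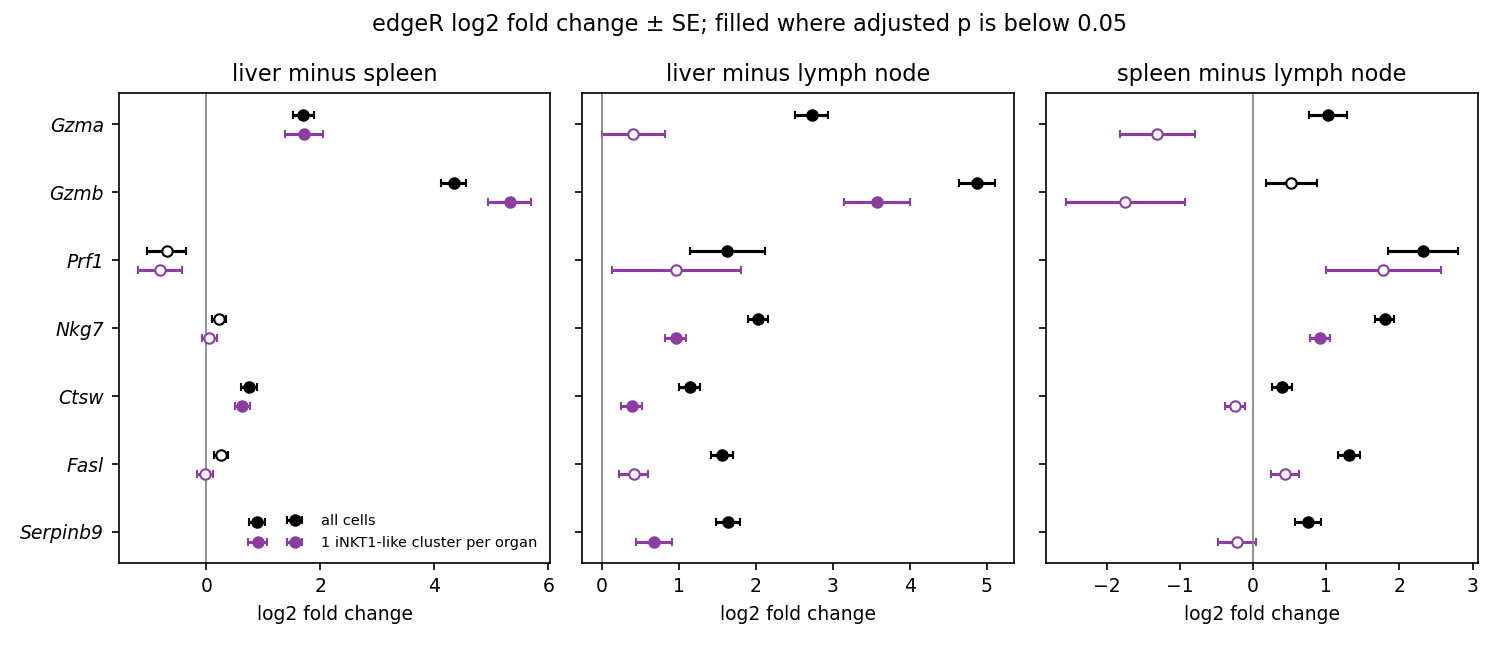
Log2 fold change of each tested member with its standard error (SE), in black over all cells and in purple over 1 cluster per organ, with filled points at an adjusted p below 0.05. Gzmb and Gzma lie farthest to the right in the panel of liver against spleen, at 4.34 and 1.70 over all cells.

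Other genes of the pathway were called in both directions, as were genes at large, of which 25.8% were called for liver against spleen, 37.6% for liver against lymph node and 18.3% for spleen against lymph node. The lists below are short, and a count near these shares is no result about a list. Of the other granzymes, only Gzmc had enough UMIs for the test, and Gzmd, Gzme, Gzmf, Gzmg and Gzmn had none. Gzmc was at 14.7 and 14.2 CPM in liver, 1.30 and 1.96 in spleen against 6.22 and 3.32 in lymph node. It was higher in liver than in spleen (log2 3.06 ± 0.38, adjusted p = 3.78e-07, edgeR) and lymph node (1.53 ± 0.30, 0.000139), and lower in spleen than in lymph node (-1.53, 0.0219). Of the 7 genes of granule loading and scaffold, 1 was higher and 2 were lower in liver than in spleen. Cst7, an inhibitor of cathepsins, rose by 0.61, while Ctsc, the protease that activates granzymes, fell by 0.73 and the lysosomal membrane gene Lamp2 fell by 0.66. Against lymph node, liver had 2 higher (Lyst 2.56, Ap3b1 0.39) and 2 lower (Lamp2 -1.13, Ctsc -1.08). Spleen had Lyst, a regulator of lysosome size, higher by 2.65 than lymph node, and Cst7 (-0.89) and Lamp2 (-0.47) lower.

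Of 9 genes of granule release, 3 were called for liver against spleen, 4 for liver against lymph node and 2 for spleen against lymph node. Higher in liver than in spleen were 3, beside 12.7% of all genes. These were Sytl3 (1.13) and Sytl2 (1.01), synaptotagmin-like effectors of Rab27, and Rab27a itself (0.80). In liver against lymph node Sytl3 (2.35), Sytl2 (1.55) and Unc13d (0.41), the Munc13-4 gene that primes granules, were higher and Vamp7 (-0.44) was lower. Spleen had higher Sytl3 (1.22) and lower Rab27a (-0.60) than lymph node. Among 6 death ligands and receptor genes, the ligand Tnfsf10 (TRAIL) was higher in liver than in spleen (0.71) and lymph node (1.17). Tnf was higher in liver than in spleen (0.56) and lower in spleen than in lymph node (-0.71). The receptor Fas was lower in liver than in spleen (-0.63) and lymph node (-0.66). Lta was lower than in lymph node in liver (-1.39) and in spleen (-1.36), and Casp8 was higher (0.58 and 0.40).

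Intracellular serpins went both ways. Of 4 tested, Serpina3g and Serpinb6b were higher in liver than in spleen (1.14 and 0.44) and lymph node (2.39 and 1.16), and in spleen than in lymph node (1.25 and 0.73). Serpinb1a was lower in liver than in spleen (-0.83) and fell by 4.01 in liver and by 3.18 in spleen against lymph node, and Serpinb6a was lower by 1.09 and 1.02 (log2 -1.09 and -1.02) in the same comparisons. Transcription factors of effector lymphocytes had 2 of 4 tested higher in liver than in spleen (Runx3 0.51, Tbx21 0.48), 4 of 4 higher in liver than in lymph node (among them Tbx21 2.08, Prdm1 1.27 and Id2 0.42) and 3 of 4 higher in spleen than in lymph node (Tbx21 1.60, Prdm1 0.81, Id2 0.50). Eomes and Zeb2 were too low to be tested. All of these named differences had an adjusted p below 0.05 in edgeR. The median log2 fold of the tested genes of a list, for liver against spleen, liver against lymph node and spleen against lymph node, was -0.09, 0.05 and 0.13 for loading and scaffold, 0.23, 0.20 and 0.10 for release, and 0.07, -0.12 and 0.06 for death ligands. It was 0.18, 0.04 and -0.15 for serpins and 0.47, 0.84 and 0.66 for transcription factors, beside 0.02, 0.01 and 0.00 over all genes.

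Over the 6 libraries, the genes whose log2 CPM ran most like that of a member were, for Gzma, Ddx58, Tbp and Bcl2l2 (Pearson r = 0.995 for each, of 10166 genes). For Gzmb they were Nlrc5 (r = 0.999), Hdgf and Zbtb39, for Prf1 Azi2 (0.997), Nemf and Rnf34, and for Fasl Il12rb2 (0.999), Hcfc1 and Abcb1a. With 6 libraries in 3 pairs, 632 genes had r above 0.9 with Gzma and 603 with Gzmb. These are descriptions, and the points share organ and depth.

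In cells thinned to 1000 UMIs, Nkg7 was found in most liver and spleen cells, and the other members in a minority of cells in every library. At 1000 UMIs per cell, Nkg7 was found in 73.1% and 77.4% of liver, 68.6% and 68.3% of spleen compared with 26.6% and 26.4% of lymph node cells. Ctsw was found in 33.9% and 38.1% of liver, 26.4% and 23.6% of spleen against 21.9% and 15.6% of lymph node cells. Without thinning it was found in 74.0% and 70.4% of liver, 41.9% and 35.7% of spleen and 33.3% and 24.2% of lymph node cells. Fasl was in 6.50% and 6.59% of liver, 6.00% and 6.44% of spleen compared with 2.53% and 2.33% of lymph node cells, where the exact 95% intervals of liver and spleen overlap. Serpinb9 was seen in 4.57% and 5.19% of liver, 3.09% and 2.29% of spleen against 1.73% and 1.48% of lymph node cells.

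At 1000 UMIs, Gzmb and Gzma were each in under 10% of liver cells. Gzmb was found in 8.28% (exact 95% interval 7.29 to 9.37) and 9.64% (8.58 to 10.8) of liver cells, 0.774% and 0.402% of spleen cells compared with 0.337% and 0.297% of lymph node cells. Without thinning the liver shares were 18.0% and 18.7%, and those of the other libraries 0.341% to 1.17%. Gzma was found in 1.71% (1.27 to 2.27) and 2.10% (1.61 to 2.70) of liver cells, 0.967% and 0.644% of spleen against 0.295% and 0.212% of lymph node cells. Prf1 was in 0.286% and 0.210% of liver cells, 0.851% and 0.603% of spleen cells compared with 0.126% and 0.170% of lymph node cells. For Gzmm the share was 0.214% and 0.175% in liver, 0.155% and 0.161% in spleen, and 0.0424% in lymph node 2. In lymph node 1 it was in 0 of 2373 thinned cells, which allows up to 0.155% (exact interval). Of the 8 members, 7 had a higher share in both liver than in both spleen libraries, Prf1 being the exception. All 8 had a higher share in both spleen than in both lymph node libraries. How many of all genes do so was not counted, so these counts are no result about the members. For Gzmm they rest on 6 and 5 liver cells against 4 and 4 spleen cells. The shares are given as values and were not tested, and intervals cover counting error only.

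**Figure D3:**
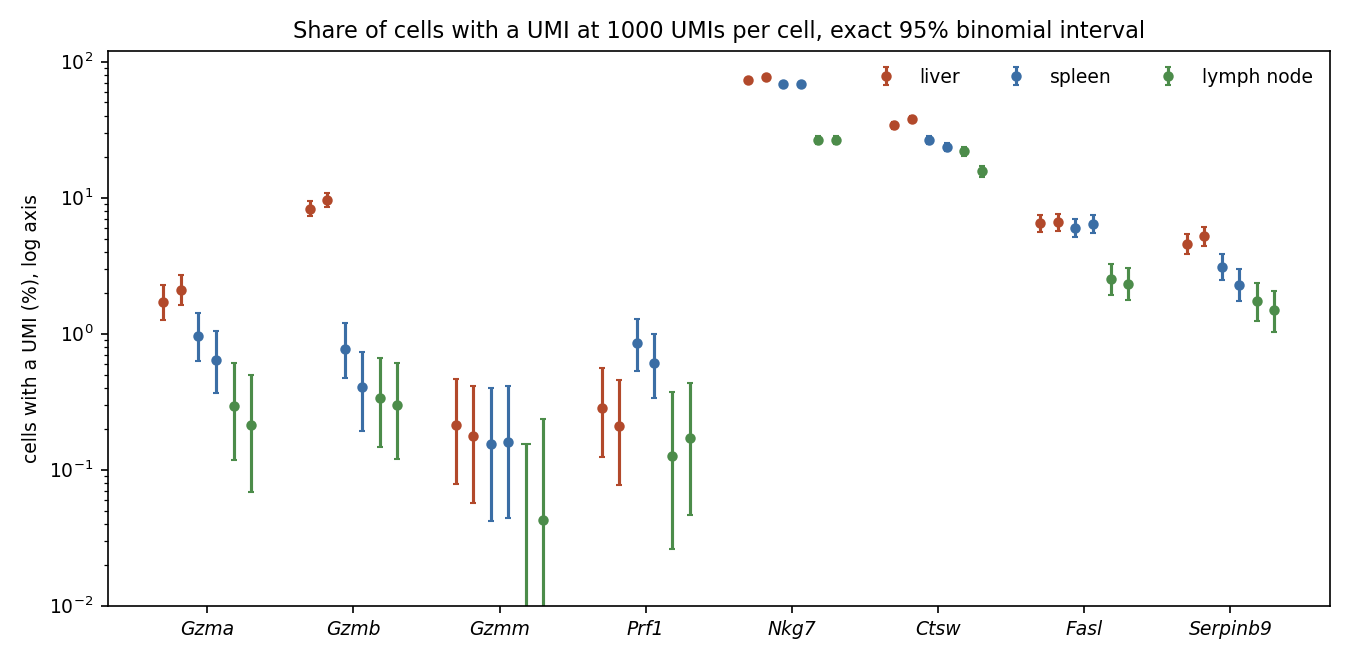
Share of cells with at least 1 UMI of each member after thinning to 1000 UMIs (percent, logarithmic axis), by library, with exact 95% binomial intervals. Gzmb falls from 8.28% and 9.64% in liver to below 1% elsewhere, while Nkg7 is at 68.3% to 77.4% in liver and spleen.

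Free RNA can place UMIs in cells that do not transcribe a gene, so the shares were read in cells of an iNKT17-like cluster (cluster 3, 1997 cells, median 1841 UMIs), a subset not known for cytotoxic granules. There, Nkg7 was in 51.0% (36.6 to 65.3) of 51 thinned liver cells, 21.7% (13.4 to 32.1) of 83 spleen cells and 9.92% (8.56 to 11.4) of 1755 lymph node cells. Ctsw was in 21.6%, 4.82% and 5.64% in the same order, Fasl in 3.92%, 1.20% and 0.627%, and Serpinb9 in 3.92%, 0% (up to 4.35%) and 0.912%. In the lymph node cells of this cluster Gzma was in 0.285% (0.0926 to 0.664) and Gzmb in 0.228% (0.0621 to 0.583). The shares of both granzymes over all lymph node cells, which include these, lie within those intervals. Single lymph node cells held up to 16 and 12 Gzma UMIs, of 39 and 23 in the whole library, and up to 6 and 6 Gzmb UMIs. The part of free RNA in these values was not tested. In spleen no thinned cell of the iNKT17-like cluster had either gene, which allows up to 4.35% (1 Gzmb UMI without thinning). The shares differed between other spleen clusters. Gzma was in 11.5% (6.72 to 18.0) of 139 spleen cells of cluster 4.1 against 0.324% (0.162 to 0.579) of 3396 of cluster 0, and Gzmb in 5.76% (2.52 to 11.03) against 0.353% (0.183 to 0.616). Within liver the share of cells with Gzmb differed between clusters too. It was 29.3% (24.0 to 35.1) of 273 cells of cluster 4.1, 8.91% (7.96 to 9.94) of 3276 cells of cluster 1, 1.49% (0.181 to 5.29) of 134 cells of cluster 0 and 0 of 89 cells of cluster 4.0 (up to 4.06%). Liver cells of the iNKT17-like cluster had Gzmb in 4 of 51, or 7.84% (2.18 to 18.9), an interval that includes the value of cluster 1.

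The UMIs of Gzma were held by few cells. The top 1% of liver cells carried 70.0% and 68.5% of all Gzma UMIs, against 24.0% and 27.8% for Gzmb. For Nkg7 that share was 3.66% and 4.00%. Single liver cells reached 33 and 56 Gzma UMIs, and 9 and 8 cells had at least 10. Gzmb peaked at 21 and 31 UMIs in liver cells, with 47 and 63 cells at 5 or more, against 0 to 2 such cells in each spleen and lymph node library. Nkg7 had at least 5 UMIs in 55.8% and 53.5% of liver cells. No cell had more than 2 UMIs of Prf1.

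Clusters were made without the members, and 1 cluster was taken per organ by its iNKT1 markers to compare organs within a narrower set of cells. These were cluster 1 in liver (1771 and 1505 cells), cluster 0 in spleen (1776 and 1855) and cluster 2.0 in lymph node (538 and 549). Against all other cells, the median log2 value of the iNKT1 markers was 0.716 in cluster 1 and 0.181 in cluster 0. None of them reached a log2 value of 1 in cluster 0. The median for cluster 2.0 was 1.27 against the rest of cluster 2, which was itself at -0.86 against all other cells. The marker Tbx21 was called higher in the liver and spleen clusters than in lymph node. The 3 clusters are not shown to be the same kind of cell. Gzmb was at 155 and 212 CPM in the liver cluster, 4.20 and 4.36 in the spleen cluster, and 25.8 and 1.89 in the lymph node cluster, where the counts were 15 UMIs and 1 UMI. Gzma was at 24.2 and 18.7 CPM in liver, 4.66 and 7.76 in spleen against 25.8 and 3.79 in lymph node. Lymph node 1 stood far above lymph node 2 for both granzymes. Nkg7 was nearly level between liver (2573 and 3015 CPM) and spleen (2558 and 2546) and lower in lymph node (1322 and 1383). Fasl was at 114.6 and 115.7, 112.4 and 108.1, and 87.8 and 73.9 CPM in the same order, with the lymph node values lowest. Ctsw was at 704 and 762, 486 and 409.7, and 623 and 426 CPM, and Serpinb9 at 68.3 and 77.0, 37.3 and 35.9, and 44.8 and 39.8 CPM, so that lymph node did not have the lowest pair for either.

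Over 9200 genes in these clusters, 23.7% differed between liver and spleen (11.8% higher in liver), and 4 of the 7 members were higher in liver. They were Gzmb (log2 5.32 ± 0.37, adjusted p = 3.12e-07, edgeR), Gzma (1.72 ± 0.33, 3.51e-05), Serpinb9 (0.90 ± 0.17, 1.49e-05) and Ctsw (0.63 ± 0.13, 7.32e-05), the same 4 as over all cells. The folds of Gzmb and Gzma were smaller, at 3.73 and 0.90, with clustering at resolution 0.3, and that of Gzmb was 4.53 with totals thinned to the shallowest library. Nkg7 (0.05, adjusted p = 0.817), Fasl (-0.02, 0.935) and Prf1 (-0.81, 0.113) did not pass, although Prf1 was lower in liver (-1.09, 0.0201) where clusters were made without regressing out depth. Against lymph node, where 18.6% of genes were called (7.93% higher in liver), Gzmb was higher in liver by 3.57 ± 0.43 (5.31e-05), with 6.49 without lymph node 1 and 2.73 without lymph node 2, Nkg7 by 0.96 ± 0.14 (3.13e-09), Serpinb9 by 0.68 ± 0.23 (0.0267) and Ctsw by 0.39 ± 0.14 (0.0320). Gzma was not called (0.41, adjusted p = 0.536), though it was without lymph node 1 (2.43, 0.0224) and with each of 3 other clusterings (1.43 to 3.45). Serpinb9 and Ctsw were not called without lymph node 2 (adjusted p = 0.229 and 0.689), without liver 2 (0.105 and 0.125) or with DESeq2 (0.161 and 0.174), and Serpinb9 was not without lymph node 1 (0.0961).

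Between the spleen and lymph node clusters, with 7.78% of genes called and 2.75% higher in spleen, Nkg7 alone of the 7 members passed (log2 0.91 ± 0.14, adjusted p = 3.71e-08, edgeR). Gzmb had a log2 value of -1.74 (adjusted p = 0.260), Gzma of -1.30 (0.110), Prf1 of 1.78 (0.165) and Fasl of 0.44 (0.164). Leaving out lymph node 2, with lymph node 1 assumed to vary like the others, made Gzmb (-2.59) and Gzma (-2.06) lower in spleen. The lymph node cluster held 17 Gzma UMIs, 15 of them in lymph node 1. By share of thinned cells Gzma went the other way, with 1 of 877 lymph node (0.114%) against 11 of 3396 spleen cells (0.324%). For Gzmb the shares were 0.456% in lymph node and 0.353% in spleen. Gzmb was called lower in spleen without liver 1, liver 2 or spleen 2 too, and with the replicate block given later.

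Seen over all 17 clusters of at least 100 cells, 7 of the 8 members had their highest level in cluster 4.1, a group of 452 cells (119 and 154 from liver, 81 and 68 from spleen, 8 and 22 from lymph node). Its leading genes were Tyrobp, Klra5, Klre1, Ncr1 and others also found in NK cells. Gzma was at 617 CPM there against 17.7 in the other 16080 cells, and Gzmb at 575 against 77.7. Nkg7 was at 3579 against 1772, Ctsw at 783 against 486.5, Serpinb9 at 128 against 48.8, Prf1 at 14.5 against 4.02 and Fasl at 96.3 against 72.2. The place of Gzmm, at 3.96 CPM against 1.22, rests on 3 UMIs that are all from liver 2, and that of Prf1 on 11 UMIs. Fasl was highest instead in cluster 5.2 (115.9 CPM, 64 UMIs), whose leading genes Egr2, Nr4a3 and Nr4a1 are early genes of receptor stimulation, but by little over cluster 1 (113.6 CPM, 869 UMIs) and cluster 0 (107.6 CPM). By share of thinned cells, which differs from CPM where a few cells hold many UMIs, cluster 4.1 was highest for 4 of the 8. How many of all genes are highest in this cluster was not counted, so these counts are no result about the members. The levels given pool organs, and cluster 4.1 holds more liver cells than the rest. Of the 5 libraries with at least 20 cells in the cluster, Gzma, Gzmb, Nkg7 and Ctsw were higher in it than in the library's other cells in all 5, Serpinb9 in 4 and Fasl and Prf1 in 3. Gzmb was at 729.4 and 767.2 CPM against 138.4 and 186.5 in the other liver cells, and at 110.1 and 65.2 against 8.82 and 4.58 in spleen. Gzma was at 766.5 and 695.8 CPM against 23.4 and 34.4 in liver, and at 260.3 and 338.9 against 9.89 and 10.6 in spleen. Fasl was below the other cells in both spleen libraries, at 70.1 and 52.1 against 74.6 and 76.7. In lymph node 2, the 22 cells of the cluster had 617.2 CPM of Gzma and 308.6 of Gzmb, from 14 and 7 UMIs, both above the spleen values, while the 8 cells of lymph node 1 had no Gzma UMI and 1 of Gzmb.

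**Figure D4:**
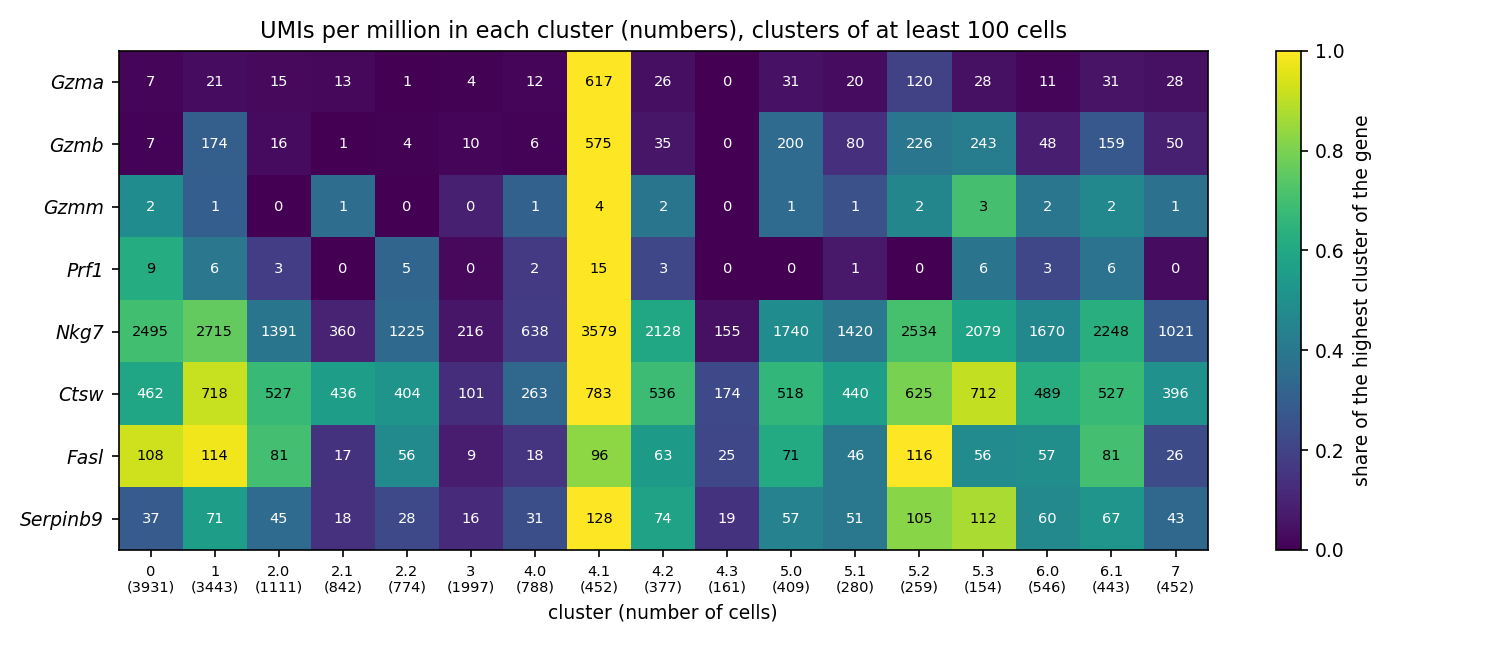
Level of each member (CPM, printed in the cells) in the 17 clusters of at least 100 cells, with colour giving the share of that gene's highest cluster. Cluster 4.1 is brightest for 7 of the 8 members (Gzmm by 3 UMIs), and all genes were not counted in this way. Gzmb is also at 174 in cluster 1 against 6.65 in cluster 0.

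Markers of NK cells and of T cells were both present in cluster 4.1. Fcer1g was at 976 CPM against 28.1 elsewhere, Tyrobp at 345.5 against 15.3 and Ncr1 at 79.1 against 1.11, the latter in 6.86% of its cells. Eomes had no UMI. The T cell receptor complex genes were close to the level elsewhere, with Cd3d at 2036 against 2045 CPM, Cd3g at 1961 against 2121 and Cd3e at 659 against 886. Zbtb16, the factor PLZF that marks the iNKT lineage, was at 43.5 against 87.5. Without these 452 cells, an alternative added after seeing the data, Gzmb stayed called in both contrasts with liver and all 7 members stayed higher in liver than in lymph node. Gzma was then higher in liver by 1.42 than in spleen (adjusted p = 0.0440, edgeR) and by 2.07 than in lymph node (0.00826). In spleen against lymph node Gzma (0.65, adjusted p = 0.492) and Ctsw (0.39, 0.0617) were no longer called.

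The number of members found per cell differed by organ. Nkg7 and Ctsw, the members found in most cells, weigh most in this number, and genes at large were not counted in this way. At 1000 UMIs, no member was found in 16.1% and 12.9% of liver, 24.3% and 24.3% of spleen compared with 58.4% and 62.4% of lymph node cells. The mean number of members was 1.29 and 1.39 in liver, 1.07 and 1.02 in spleen against 0.535 and 0.465 in lymph node. At least 4 members were seen in 17 and 28 liver, 6 and 5 spleen compared with 1 and 1 lymph node cells, and 1 liver cell had 5.

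Of the 28 pairs of members, 15 could be assessed in at least 1 library, with at least 5 cells expected to hold both. In 7 of them the odds ratio of co-detection was above 1 in every library assessed. Nkg7 went with Ctsw (odds ratios 1.27 to 2.30) and Fasl (1.08 to 5.48) in 6 of 6 libraries, and with Gzma (1.78 to 3.00) and Gzmb (1.58 to 3.42) in 4 of 4. Gzmb went with Ctsw in 3 of 3 (1.36 to 2.32) and with Serpinb9, its inhibitor, in 2 of 2 at ratios close to 1 (1.08 and 1.09). Gzma with Gzmb is the remaining pair. Prf1 and Ctsw were below 1 in the 1 library assessed (0.497), and the other pairs were mixed. Ctsw and Serpinb9 had ratios from 0.759 to 1.90, Gzma and Ctsw from 0.927 to 1.67, and Prf1 and Nkg7 from 0.960 to 2.58. The ratios describe cells of mixed subsets within a library, and cells are not replicates.

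Cells with both Gzma and Gzmb were few. Both genes were found in 19 and 18 liver cells, 2 and 1 spleen cells against 1 and 0 lymph node cells. Of liver cells with Gzma, 19 of 48 and 18 of 60 had Gzmb, against 7.74% and 9.21% of those without, for odds ratios of 7.87 and 4.29. Only liver 2 reached 5 expected cells. Cluster 4.1 held 39.8% (exact 95% interval 32.1 to 47.8) of the 161 cells with Gzma, 16.7% (13.7 to 20.0) of the 552 with Gzmb and 27 of the 41 with both, but 2.83% of all thinned cells. Within the liver cells of cluster 4.1 the ratio was 6.15 and 2.14, and outside it 3.62 and 3.05. Outside it only 2.10 and 2.85 cells were expected to hold both, under the minimum of 5, so those ratios are values only.

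**Figure D5:**
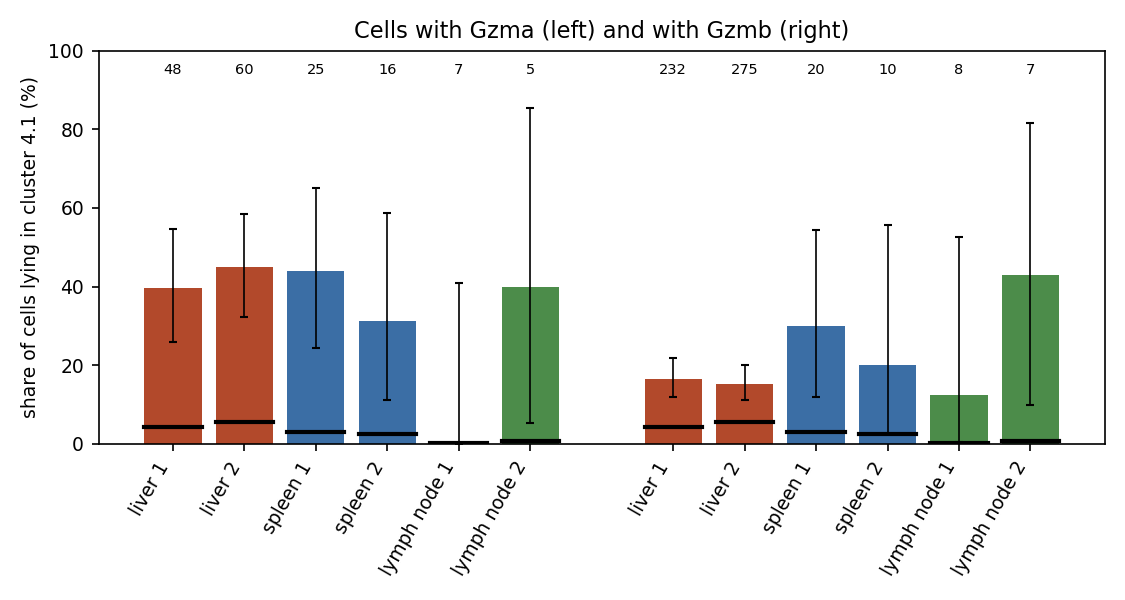
Percent of cells with Gzma (left) and with Gzmb (right) that lie in cluster 4.1, by library, with exact 95% intervals, the number of such cells above each bar, and a thick line for the percent of all cells in that cluster. In liver 39.6% and 45.0% of Gzma cells lie in the cluster, against 16.4% and 15.3% of Gzmb cells.

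Cells with and without Gzma were then compared as sums per library, with the library as a block (48, 60, 25, 16, 7 and 5 cells with Gzma). Of 6727 genes, 0.684% were called and 0.253% were higher in cells with Gzma (17 higher and 29 lower), where the median of all genes was -0.48. Of 5 other members tested, Gzmb alone was called, at 422 against 68.0 CPM (log2 2.22 ± 0.28, adjusted p = 5.47e-12, edgeR), higher in 5 of 6 libraries. Without thinning it was at 190 against 62.1 CPM (1.46 ± 0.18, adjusted p = 9.18e-14). Nkg7 (0.24, adjusted p = 0.615), Ctsw (-0.26, 0.660), Fasl (0.43, 0.645) and Serpinb9 (0.36, 0.750) did not pass, although DESeq2 called Nkg7 (0.69, 0.0178). The genes called and higher in all 6 libraries were Klre1 (1.85), a lectin-like NK receptor, the chemokine Ccl5 (1.65), Klf2 (1.10), a factor of lymphocyte trafficking, and Klrk1 (1.05), the NKG2D receptor. Without cluster 4.1, Gzmb had too few UMIs in the cells with Gzma to be tested, and of 116 genes called only Ccl5 was higher. With DESeq2 all 19 genes called were higher.

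In cells with Gzmb (232 and 275 liver and 20 and 10 spleen cells, lymph node having under 10 in each library) Gzma was the member called. Few cells enter these splits, so a member that did not pass is not shown to be level. Of 7164 genes, 0.195% were called and 0.181% were higher. Gzma was at 251 against 28.1 CPM (log2 3.04 ± 0.25, adjusted p = 1.24e-29, edgeR), higher in 4 of 4 libraries. Nkg7 (0.15), Ctsw (0.33), Fasl (0.10) and Serpinb9 (0.19) each had an adjusted p of 0.999. The other named genes were Fcer1g (2.11), the adaptor of activating receptors, Klra7 (1.95), Gm4208 (1.74), Cd7 (1.67), Klre1 (1.54), Klra1 (1.18), Klrc1 (1.17), Klrd1 (1.04) and Klrc2 (0.96). Most are lectin-like receptors of NK cells, whose near-identical copies make the counts of single Klra genes uncertain. Of the genes higher in cells with Gzma (a fit of 6 libraries, lymph node kept) or Gzmb (4 libraries), 9 were shared, 52.9% of the 17 and 69.2% of the 13. Both granzymes were also raised in the cluster with NK-cell markers. Without it, none of the 9 was called in cells with Gzma, where 7 could be tested and 6 had log2 values above 0 (0.26 to 1.03). The other, Fcer1g, was at -7.75 (adjusted p = 0.136, edgeR). In cells with Gzmb, Cd7 (1.55), Klre1 (1.25) and Klrc1 (1.05) were called, and the other 6 had values of 0.56 to 1.88 with an adjusted p of 0.999 (edgeR). Gzma was then still higher in cells with Gzmb (2.02 ± 0.40, adjusted p = 0.000807). The call was lost without thinning (2.53, 0.406) and over all clusters of the iNKT1-like class, not 1 per organ (2.43, 0.114).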

How the data were processed

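Libraries were prepared by the authors with the 10x Genomics Chromium 3′ kit (v2), and Cell Ranger 3.1.0 aligned reads to mm10 and counted UMIs. The deposited matrices hold raw UMI counts per gene and cell barcode, and the other values deposited are names of barcodes and genes. The annotation version is not given in the sources used here. The submitters' processing notes also name Seurat.

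The 8 members, the lists and the tests were chosen with earlier results of these data known. Left out were 55 of 16587 barcodes (under 300 or over 4000 genes, or over 15% mitochondrial UMIs, limits the study gives) and 198 ribosomal and haemoglobin genes (24.0% to 35.0% of UMIs). No doublet caller was used beyond the limit on genes per cell, which the study set against doublets. The study also removed cells with both Xist and genes of the Y chromosome, and that rule was not applied here. As an alternative, the 2% of cells with the highest Scrublet score (331 cells) were left out. UMIs were summed per library and tested with edgeR 4.0.16 (R 4.3.3; filterByExpr with a minimum count of 10, TMM, robust quasi-likelihood fit, organ as the only term, all 6 libraries in 1 fit), with Benjamini-Hochberg adjustment over all genes tested in a contrast and calls below 0.05. SE is the log2 fold change over the root of the F statistic. Each fit was first tested on simulated counts. False calls were made in each, and the fit of cells with Gzma had the largest number of them. The fits of cells with Gzma or Gzmb missed most 2-fold changes.

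Cells were clustered with scanpy 1.11.5 and leidenalg 0.10.2 (Python 3.11.15; 3000 variable genes, 20 components, 20 neighbours, resolution 0.5) without the members and other granule genes (42 genes kept out). Clusters of at least 500 cells were split again where no class name was reached or where 2 were. Thresholds for naming were chosen with the clusters in view. The comparison planned over all iNKT1-like cells was made over 1 cluster per organ, since leading genes of some clusters of that class went against the name. Cells with and without a granzyme UMI were thinned to 1000 UMIs. Shallower cells (0, 9, 144, 169, 265 and 488 cells of liver 1 and 2, spleen 1 and 2, and lymph node 1 and 2) were left out. Odds ratios have 0.5 added to each count. Shares have exact Clopper-Pearson 95% intervals.

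The rule for named genes was the 8 members and at most 3 called genes with the largest fold per pathway list, contrast and direction. For the granzyme splits it was the 10 genes with the highest fold that were called and higher in every library. The 3 most correlated genes were named for 4 members. Alternatives were DESeq2 1.42.0, no filter on low counts, ribosomal genes kept, other thinning, other clustering, a replicate block, and leaving out each library or cluster 4.1.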

Additional observations from a re-analysis of the deposited data

How the results depend on the processing

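Of 744 values of 52 member results under the alternatives, 709 kept their side of the threshold, 14 passed it newly and 21 no longer passed it. None changed direction where it was called before or under the alternative. Changes of direction between values not called were not counted apart. The cause was not tested in any case.

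Genes called (members among them) changed as follows. With DESeq2, 1419, 2550 and 1125 genes were called over all cells for liver against spleen, liver against lymph node and spleen against lymph node. In the 1 cluster taken per organ it was 738, 898 and 372, with 2 members in liver against lymph node. Totals thinned to the shallowest library gave 606, 1023 and 449 in the clusters, where Gzma and Prf1 were not tested and 3 of 5 members were called for liver against spleen. Clustering at resolution 0.3 gave 1385 for liver against spleen, and 5 members for liver against lymph node with Gzma (1.43, adjusted p = 6.69e-06, edgeR) among them. At resolution 1.0 Gzma was called (3.45, 2.81e-05) and Serpinb9 was not (0.53, 0.0618). Without regressing out UMI count and mitochondrial share, Prf1 was lower in liver than in spleen, which made 5 members, and against lymph node Gzma was called (1.45, 0.00129) and Ctsw was not (0.34, 0.0532). Over all cells, with ribosomal genes kept, Ctsw (0.39, 0.0525) was not called for spleen against lymph node, which left 5 members. For spleen against lymph node in the clusters, no filter on low counts gave 2 members.

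For cells with Gzma, DESeq2 called 19 genes (all higher) and 2 members. Without thinning 162 genes were called (109 higher, 53 lower), and 103 with a minimum of 2 UMIs (12 higher, 91 lower). Without cluster 4.1 it was 116 genes (1 higher, 115 lower) and 0 members. In libraries with at least 10 cells with Gzma, 48 genes (21 higher, 27 lower) and 1 member were called. Over all clusters of the iNKT1-like class, 0 genes and 0 members were called. There edgeR had 332 genes at an unadjusted p below 0.05, but Gzmb was not tested. For cells with Gzmb, 46 genes and 0 members were called without thinning, and 30 genes and 2 members (Nkg7, 0.44, joining Gzma) with a minimum of 2 UMIs. Over all clusters of the iNKT1-like class it was 8 genes and 0 members, and without cluster 4.1 it was 8 genes (7 higher). Counting cells with at least 2 UMIs, 4 members had a higher share in liver than in spleen and 3 in spleen than in lymph node. At 1 UMI it was 7 and 8, and all genes were not counted in this way. Without thinning, 17 of 22 pairs assessed had odds ratios above 1 in every library assessed (6 of 10 at 500 UMIs, 7 of 15 at 1000). By share of cells thinned to 1000 UMIs, in place of CPM, cluster 4.1 was highest for 4 members.

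Leaving out 1 library at a time gave, over all cells, 1364 to 2405 genes for liver against spleen (1365 without liver 1, 1364 without spleen 2, with 4 members each time), 2409 to 4028 for liver against lymph node (6 to 7 members) and 1025 to 1929 for spleen against lymph node (4 to 6 members), both lowest without lymph node 2. In the clusters it gave 992 to 2247 (992 without spleen 2, 1140 without liver 1, with 4 members), 832 to 1694 (832 without lymph node 2, 1105 without lymph node 1, with 2 to 4 members) and 390 to 790 (390 and 421 without lymph node 2 and 1, with 1 to 3 members). Cells with Gzma gave 15 to 31 genes (22, 29, 16 and 15 without liver 1, liver 2, spleen 1 and spleen 2) and cells with Gzmb 3 to 17 (3 without either liver library), with 1 member each time. An organ left with 1 library is assumed to vary like the others. Pairs with odds ratios above 1 numbered 6 to 12 (12 without liver 1).

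Libraries of the same number were not paired. Their deviations from the organ means correlated at 0.0850, 0.0826 and 0.0678. With the replicate block, 3034, 4141 and 2113 genes were called over all cells, and 2478, 1879 and 848 in the clusters, where Gzmb (-1.75, adjusted p = 0.0135, edgeR), lower in spleen than in lymph node, was called beside Nkg7 and made 2 members. Depth limits Gzmm, with 1 and 2 UMIs in lymph node, and Prf1, with 4 and 6.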

Other observations

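Gzmc, the one other granzyme with enough UMIs to be tested, had an organ pattern of its own over all cells. Its UMIs numbered 190 for liver, 12 for spleen and 35 for lymph node, so that lymph node exceeded spleen, while Gzma was in the opposite order. In the 1 cluster taken per organ, Gzmc was higher in liver than in spleen (log2 2.85, adjusted p = 3.73e-05, edgeR) and lymph node (3.22, 0.0143). Spleen and lymph node were not told apart there (0.37, 0.939). In cluster 4.1 Gzmc was at 9.23 CPM, from 7 UMIs, against 8.49 in all other cells, and within liver it was below the other cells (11.1 against 14.9 and 10.7 against 14.4), whereas Gzma and Gzmb were at 617 against 17.7 and 575 against 77.7. In cells with against cells without Gzmb, Gzmc did not pass the filter on low counts and was not tested in the planned comparison. Where it could be tested, it was higher with cluster 4.1 left out, an alternative added after seeing the data (log2 2.96, adjusted p = 5.57e-09, edgeR). It was also higher without either spleen library (2.72 and 2.71), without thinning (2.33) and with a minimum of 2 UMIs (3.76). Over all clusters of the iNKT1-like class it was not called (2.41, adjusted p = 0.163, edgeR). Gzmb and Gzmc are members of the same gene family, and whether reads of one were counted for the other was not tested.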
